A study of Mus musculus with 9 samples.

Results

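The 9 genes described here are used to follow the birth of neurons in the adult hippocampus, the brain region in which new granule neurons are added to the dentate gyrus throughout life. They were chosen by name, with earlier results of these data known, and are 9 of the 54532 genes listed in each deposited table. Dcx, Sox11, Sox4, Igfbpl1 and Draxin mark neuroblasts and immature neurons. Eomes and Neurod1 are transcription factors of the steps between progenitor and neuron. Mki67 and Top2a are transcribed in dividing cells. In the adult dentate gyrus, radial glia-like stem cells divide into intermediate progenitors that carry Eomes, these give neuroblasts that carry Dcx, and the neuroblasts lose both as they mature into granule neurons. Dividing cells and neuroblasts are rare in hippocampal tissue, so their transcripts stand at low levels in RNA of the whole region. In such bulk samples, fewer cells of a type and less RNA per cell cannot be told apart.

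RNA was sequenced from 9 samples of mouse hippocampus in 3 groups of 3. The Con mice ate a standard diet, and the HMD mice ate a high-methionine diet, which feeds the formation of homocysteine, for 8 weeks. The Bet+HMD mice ate the high-methionine diet for 8 weeks and then had betaine, a methyl donor that returns homocysteine to methionine, at 2.5% (w/v) in the drinking water for 2 weeks. The labels give the Con mice as WT and name no transgene in any group, and the mice were 6 to 8 weeks old when bought. The labels give males of strain C57BL/6, except that the strain cells of the Bet+HMD samples run C57BL/6, C57BL/7 and C57BL/8, and the study's methods give females. Xist lay at or below 0.0449 FPKM and the Y-linked gene Ddx3y between 12.7 and 21.2 FPKM in all 9 libraries, so their RNA came from males, as the labels give. The labels do not say whether the Con and HMD mice were as old as the Bet+HMD mice when the tissue was taken, and no source used here states whether the Bet+HMD libraries were prepared and sequenced with the other 6. A difference of age or preparation and the betaine treatment cannot be told apart.

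Values are FPKM, that is fragments scaled to gene length and to library size, so levels of different genes can be set side by side. The libraries held 16031464 to 18291952 reads assigned to genes in the later of the 2 deposited tables, which has all 3 groups, and 16449388 to 18566712 in the earlier one, which has Con and HMD alone. Since the tables were scaled apart, the diet alone was read from the earlier table and betaine from the later one. Nothing states that the samples of a group came from separate animals, so p-values measure only the spread between these samples, which may be technical. The 3 Bet+HMD libraries were more alike than those of the other groups. The mean chi-square per gene between 2 libraries of a group, which is 1 under counting noise alone, was 2.72 to 3.47 among the Bet+HMD libraries, 7.94 to 13.4 among the HMD libraries and 11.4 to 23.7 among the Con libraries. The Bet+HMD pairs thus differed by more than counting noise and were counted as 3 samples. The Bet+HMD libraries also stood apart in 25315 to 25663 genes with a read and FPKM sums of 249135 to 258514, against 20816 to 23272 genes and sums of 288438 to 307899 in the 6 other libraries. The part of these differences in the results was not tested. The summed level of 10 thalamic marker genes was 113 FPKM in HMD replicate 1, 40 and 54.4 FPKM in the other HMD libraries, 18.4 to 27.6 FPKM in Con and 32.1 to 33.7 FPKM in Bet+HMD. All 6 markers of hippocampal neurons were detected in every group, with a summed level of 158 to 216 FPKM over the 9 libraries.

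All 9 are protein-coding genes, and their deposited positions on GRCm38 equal those of GENCODE M21. On the minus strand lie Dcx (ENSMUSG00000031285) at chrX:143855842-143933311, Sox11 (ENSMUSG00000063632) at chr12:27334264-27342574, Sox4 (ENSMUSG00000076431) at chr13:28948919-28953713 and Igfbpl1 (ENSMUSG00000035551) at chr4:45809468-45826923. Also on the minus strand lie Draxin (ENSMUSG00000029005) at chr4:148098437-148130698, Neurod1 (ENSMUSG00000034701) at chr2:79452521-79456751, Mki67 (ENSMUSG00000031004) at chr7:135689784-135716361 and Top2a (ENSMUSG00000020914) at chr11:98992943-99024189. Eomes (ENSMUSG00000032446) lies on the plus strand at chr9:118478212-118486132.

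The windows around the transcription starts of Dcx, Mki67 and Top2a are shown because Dcx was the gene called in both comparisons with Bet+HMD and the other two mark dividing cells. RefSeq (GRCm38.p6) gave a window of 250 bases before to 50 after the start for 8 of the 9 genes, Igfbpl1 not being matched, and 2 such windows for Dcx, of which the first is printed. Capitals mark CCAAT, the box bound by NF-Y, and TTTGAA or TTCGAA, the core of the cell cycle homology region found in many promoters of dividing cells, each searched on both strands. All 3 genes lie on the minus strand, and each window is written 5′ to 3′ along it, from chrX:143933170-143933469 for Dcx, chr7:135716330-135716629 for Mki67 and chr11:99024140-99024439 for Top2a.
Dcx: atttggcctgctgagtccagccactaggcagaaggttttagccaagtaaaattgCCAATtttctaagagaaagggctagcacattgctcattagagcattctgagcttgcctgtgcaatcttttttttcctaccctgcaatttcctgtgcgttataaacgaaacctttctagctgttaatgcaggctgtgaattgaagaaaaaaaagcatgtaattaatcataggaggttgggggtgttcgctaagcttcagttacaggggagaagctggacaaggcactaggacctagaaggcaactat
Mki67: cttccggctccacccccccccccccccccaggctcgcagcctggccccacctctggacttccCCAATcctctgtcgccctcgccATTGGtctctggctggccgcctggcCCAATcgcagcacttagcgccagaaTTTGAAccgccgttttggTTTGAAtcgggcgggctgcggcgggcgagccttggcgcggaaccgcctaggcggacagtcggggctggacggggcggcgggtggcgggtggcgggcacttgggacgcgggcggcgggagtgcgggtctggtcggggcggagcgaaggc
Top2a: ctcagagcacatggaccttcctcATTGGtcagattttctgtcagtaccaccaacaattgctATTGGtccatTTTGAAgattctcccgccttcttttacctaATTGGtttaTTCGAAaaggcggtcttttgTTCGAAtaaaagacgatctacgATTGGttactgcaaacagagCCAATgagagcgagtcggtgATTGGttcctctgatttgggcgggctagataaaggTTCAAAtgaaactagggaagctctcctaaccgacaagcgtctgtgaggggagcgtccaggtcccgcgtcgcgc
The Top2a window held 6 CCAAT matches, 2 of TTTGAA and 2 of TTCGAA, and the Mki67 window held 3 CCAAT matches and 2 of TTTGAA. Of the 32851 windows of 300 bases in the table, 37.4% held CCAAT, 17.9% held TTTGAA and 1.56% held TTCGAA, and 0.0883% held at least 3 CCAAT matches together with at least 2 of the other motifs. That last cut equals the counts of the Mki67 window, so the share is no independent measure of how rare these windows are. The Dcx window held 1 CCAAT match and neither of the others, and its share of G and C was 43.0%, beside 47.7% for Top2a, 72.7% for Mki67 and a median of 52.7% over all windows. CANNTG, the E-box read by proneural factors such as Neurod1, was present in 72.3% of all windows, 3 times in the Top2a window, 2 times in that of Sox11, once each in those of Neurod1, Sox4, Draxin and Mki67, and 0 times in those of Dcx and Eomes. A match is a description of letters and not of binding.

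The question of the first comparison was whether the high-methionine diet was accompanied by a change in the genes of neurogenesis. None of the 9 was called different (limma, adjusted p under 0.05), beside 0.0% of all 20252 genes tested. The smallest adjusted p of any gene was 0.0904, 966 genes (4.77%) had an unadjusted p under 0.05, and none of the 9 was among them. limma voom on the reads behind the FPKM values also called 0 genes. All 9 passed the filter on low values, a mean FPKM of at least 0.1. Of the log2 fold changes 7 lay below 0 and 2 above, with a median of -0.06 against -0.00 for all genes, of which 50.4% lay below 0 and 49.6% above. None of the 9 was without overlap between the groups, where 9.63% of all genes were.

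Dcx, which encodes the microtubule-binding protein doublecortin of migrating neuroblasts, stood at 1.93, 2.19 and 1.86 FPKM in the Con samples of the earlier table and at 1.47, 2.36 and 1.81 FPKM in the HMD samples. The HMD values lay on both sides of the Con values. The log2 fold change was -0.10 ± 0.211 (SE, n = 3 per group; limma adjusted p = 0.979), with a 95% interval of -0.59 to 0.39. Sox11 and Sox4, related transcription factors that drive the neuronal programme in neuroblasts, had log2 fold changes of -0.06 ± 0.307 and -0.01 ± 0.168 (SE). Igfbpl1, a secreted protein of the insulin-like growth factor binding family seen in neuroblasts, was spread more widely in HMD (0.563, 0.897 and 1.56 FPKM) than in Con (0.873, 0.919 and 1.28 FPKM). Its log2 fold change was -0.11 ± 0.359 (SE). Draxin, a secreted guidance cue for growing axons, was at 0.270 ± 0.0468 FPKM in Con and 0.270 ± 0.138 FPKM in HMD (SD, n = 3). Neurod1, a factor required for the survival of newborn granule neurons, was the most abundant of the 9, at 10.2 ± 2.01 FPKM in Con and 9.68 ± 2.95 FPKM in HMD (SD, n = 3), a log2 fold change of -0.10 ± 0.234 (SE).

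Eomes, the factor of intermediate progenitors, had the largest log2 fold change of the 9 in this comparison, 0.61 ± 0.490 (SE; limma adjusted p = 0.954), with a 95% interval of -0.53 to 1.75. Its values were 0.399, 0.187 and 0.232 FPKM in Con and 0.428, 0.224 and 0.893 FPKM in HMD. One library, HMD replicate 3, gave most of the difference, and the log2 fold change was 0.19 without it. Eomes rested on 13 to 31 reads per Con library and 15 to 66 per HMD library. Mki67, which encodes the proliferation antigen Ki-67, was at 0.340 ± 0.0552 FPKM in Con and 0.293 ± 0.0651 FPKM in HMD. Top2a, the topoisomerase that untangles DNA in dividing cells, was at 0.207 ± 0.0619 and 0.232 ± 0.0470 FPKM (SD, n = 3). The 95% interval of the log2 fold change was -0.97 to 0.63 for Mki67 and -0.82 to 1.06 for Top2a. HMD replicate 1, the library with the highest thalamic marker level, had the lowest value of its group for 6 of the 9 genes, and without it the log2 fold changes of Dcx and Igfbpl1 were 0.06 and 0.21. The part of that library's makeup in these values was not tested.

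**Figure D1:**
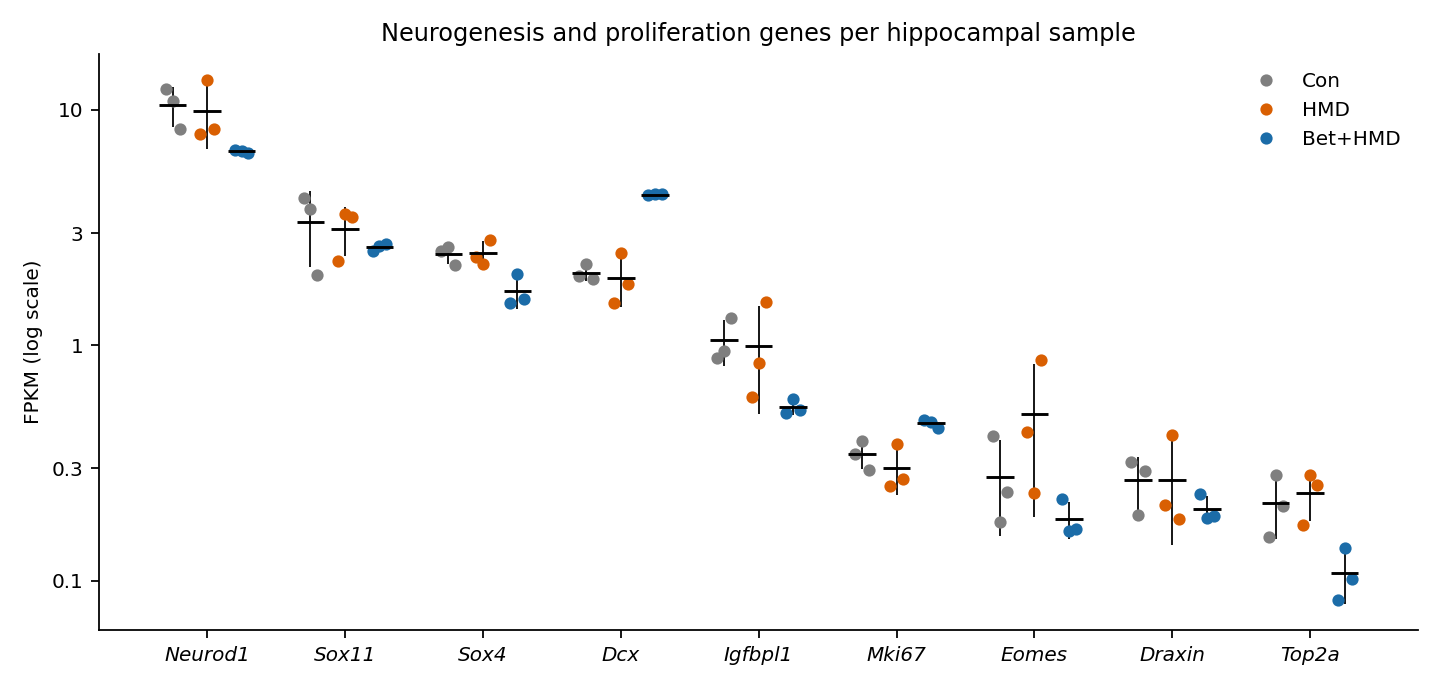
FPKM (log scale) of the 9 genes in each of the 9 hippocampal samples of the later table; points are samples, horizontal bars group means and vertical bars 1 SD (n = 3). The 3 Bet+HMD points of Dcx lie at 4.34 to 4.39 FPKM, above all points of Con and HMD (1.51 to 2.46 FPKM). Those of Mki67, at 0.445 to 0.481 FPKM, also lie above all points of both groups. Those of Neurod1, Sox4, Igfbpl1 and Top2a lie below all points of both. Of all genes tested, 50.2% did not overlap between Bet+HMD and HMD and 47.2% between Bet+HMD and Con. The share apart from both groups at once was not counted.

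The second comparison asked how the same genes stood after betaine. Bet+HMD differed from HMD in 7628 of 22000 genes (limma, adjusted p under 0.05), so that 34.7% of all genes tested were called, 19.4% higher and 15.3% lower. Of the calls 55.8% were higher, with 75.5% under rescaling to TPM, 46.6% under quantile normalization and 47.0% with a filter at a mean of 1 FPKM. Of the 9 genes 1 was called, Dcx, which was higher. Under quantile normalization 5 of the 9 were called (Dcx, Eomes, Igfbpl1, Sox4 and Top2a), and under voom another set of 5 (Dcx, Mki67, Neurod1, Sox4 and Top2a). Of the 9 genes 7 did not overlap between the groups, 5 lower and 2 higher in Bet+HMD, where 50.2% of all genes did not, 22.0% lower and 28.1% higher. An unadjusted p under 0.05 was reached by 3 of the 9 and by 45.7% of all genes. Of the 9 genes 7 had a log2 fold change below 0, as did 43.5% of all genes, and 2 above, as did 56.5%. Against Con, 6482 of 21960 genes (29.5%) were called, and 3 of the 9 were among them: Dcx was higher, Neurod1 and Igfbpl1 were lower. Of the 9 genes 6 did not overlap with Con, 4 lower and 2 higher, where 47.2% of all genes did not, 20.1% lower and 27.0% higher. An unadjusted p under 0.05 was reached by 4 of the 9 and by 41.7% of all genes, and 7 of the 9 lay below 0, as did 44.2% of all genes, with 55.8% above. Both comparisons use the same 3 Bet+HMD samples and are not independent of each other. The median log2 fold change of the 9 genes was -0.51 against HMD and -0.37 against Con, and that of all genes tested was 0.11 and 0.10.

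Dcx was at 1.98, 2.23 and 1.91 FPKM in Con, at 1.51, 2.46 and 1.83 FPKM in HMD and at 4.34, 4.38 and 4.39 FPKM in Bet+HMD. The Bet+HMD libraries held 954 to 980 Dcx reads each, and those of HMD 333 to 477. The lowest Bet+HMD sample thus lay far above the highest sample of either other group. Dcx rose by a log2 fold change of 1.16 ± 0.178 against HMD (SE, 95% interval 0.74 to 1.58, limma adjusted p = 0.00293) and 1.07 ± 0.114 against Con (SE, 95% interval 0.80 to 1.34, limma adjusted p = 0.00142). It was called under every alternative tried, with log2 fold changes of 0.88 to 1.35 against HMD and 0.82 to 1.28 against Con. Among all genes tested the change against HMD lay at percentile 83.4. The 3 Bet+HMD values had a coefficient of variation of 0.558%, beside the 3.22% that counting noise alone gives at these read numbers. A coefficient from 3 values often falls below that figure under counting noise alone, so it does not show too little spread.

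The 4 other genes of immature neurons did not rise with Dcx. Sox4 was at 2.38, 2.22 and 2.80 FPKM in HMD and at 1.51, 2.02 and 1.58 FPKM in Bet+HMD, and at 2.20 to 2.63 FPKM in Con. The Bet+HMD samples lay below all 6 others, with a log2 fold change of -0.51 ± 0.168 against HMD (SE, limma adjusted p = 0.0517) and -0.50 ± 0.162 against Con (SE, limma adjusted p = 0.0568). It passed the threshold under 6 of 15 alternatives against HMD and 5 of 15 against Con. Igfbpl1 was at 0.514, 0.591 and 0.530 FPKM in Bet+HMD, just below the lowest HMD sample at 0.602 FPKM and below the Con range of 0.885 to 1.31 FPKM. It fell against Con by a log2 fold change of -0.82 ± 0.222 (SE, limma adjusted p = 0.0333), a call that was lost under 8 of 14 alternatives, and the change against HMD, -0.67 ± 0.336 (SE, limma adjusted p = 0.162), was not called.

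Sox11 overlapped in all 3 groups. It stood at 2.00 to 4.23 FPKM in Con, 2.29 to 3.62 FPKM in HMD and 2.51 to 2.69 FPKM in Bet+HMD, and its log2 fold change against HMD was -0.22 ± 0.188 (SE, 95% interval -0.67 to 0.22; limma adjusted p = 0.391). Draxin likewise overlapped, at 0.185 to 0.233 FPKM in Bet+HMD and 0.182 to 0.414 FPKM in HMD. Its log2 fold change of -0.24 ± 0.382 (SE) against HMD became 0.02 without HMD replicate 2. Draxin shares bases with Mad2l2 on the other strand, a gene at up to 4.09 FPKM, and no source used here says if reads were counted by strand.

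Neurod1, the factor of late progenitors and newborn granule neurons, was at 12.3, 10.9 and 8.27 FPKM in Con, 7.93, 13.4 and 8.33 FPKM in HMD and 6.75, 6.67 and 6.59 FPKM in Bet+HMD. All 3 Bet+HMD samples lay below all 6 others. Neurod1 fell against Con by a log2 fold change of -0.63 ± 0.150 (SE, limma adjusted p = 0.0217), and this call was lost under 6 of 15 alternatives. The difference from HMD, -0.52 ± 0.192 (SE, log2 scale), was not called (limma adjusted p = 0.0755). The mean level of Neurod1 in Con, 10.5 FPKM, stood far above that of Dcx, 2.04 FPKM, and of Eomes, 0.277 FPKM. Whether the Neurod1 RNA came from newborn or from other neurons was not tested. Eomes was at 0.222, 0.163 and 0.166 FPKM in Bet+HMD on 12 to 16 reads. The HMD samples were higher, at 0.236 to 0.869 FPKM, but the Con samples, at 0.178 to 0.413 FPKM, overlapped. Its log2 fold change was -0.98 ± 0.447 against HMD (SE, limma adjusted p = 0.132) and -0.37 ± 0.366 against Con (SE, limma adjusted p = 0.482). Without HMD replicate 3 the first was -0.58.

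The 2 genes of dividing cells lay on opposite sides of 0. Mki67 was at 0.481, 0.472 and 0.445 FPKM in Bet+HMD, above HMD at 0.252, 0.383 and 0.271 FPKM and above Con at 0.346, 0.393 and 0.296 FPKM. Its log2 fold change was 0.51 ± 0.286 against HMD (SE, limma adjusted p = 0.208) and 0.35 ± 0.248 against Con (SE, limma adjusted p = 0.329), and under quantile normalization it was -0.18 and -0.34. Top2a was at 0.0830, 0.138 and 0.102 FPKM in Bet+HMD, below HMD at 0.172, 0.282 and 0.256 FPKM and below Con at 0.153, 0.281 and 0.208 FPKM. Its log2 fold change was -0.69 ± 0.384 against HMD (SE, limma adjusted p = 0.203) and -0.58 ± 0.373 against Con (SE, limma adjusted p = 0.282). Neither gene was called, although neither overlapped with the other groups. Mki67 was counted at 78 to 84 reads per Bet+HMD library and 44 to 59 per HMD library, and Top2a at 13 to 22 and 27 to 39.

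**Figure D2:**
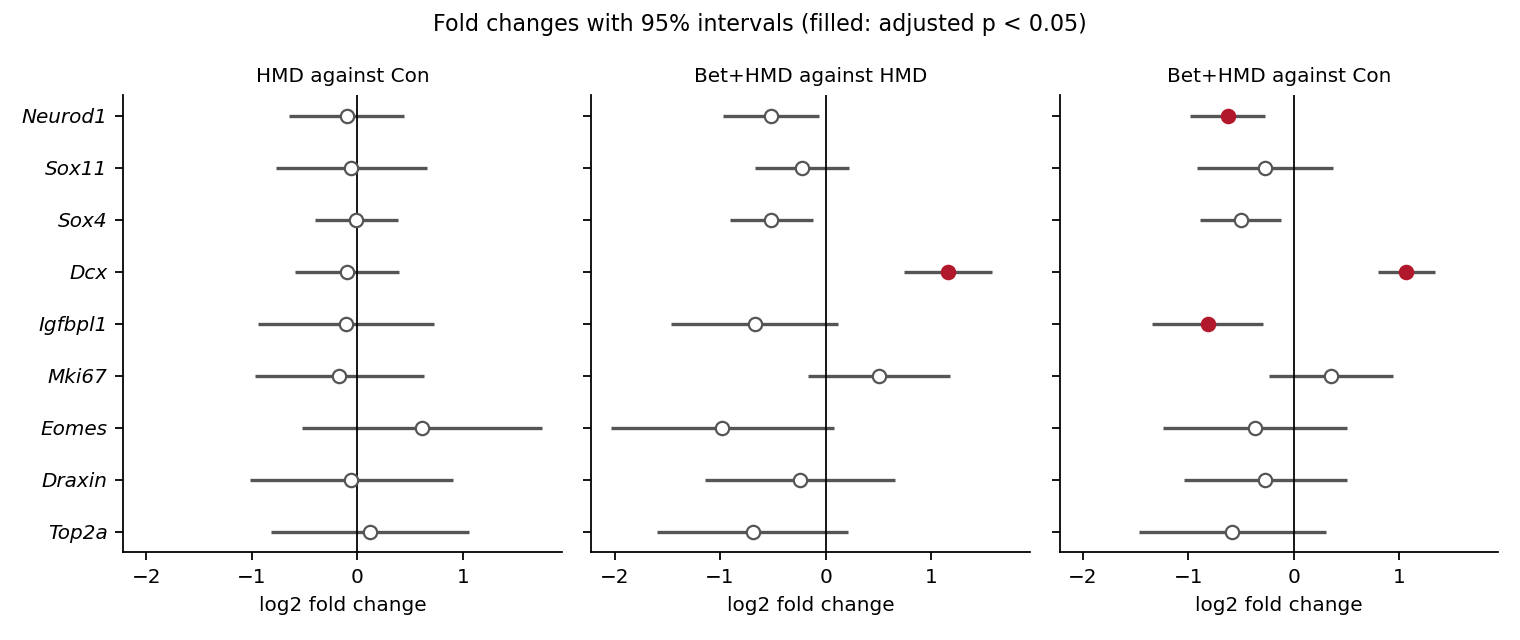
Log2 fold changes of the 9 genes with 95% intervals in the 3 comparisons (limma, n = 3 per group); filled points passed an adjusted p of 0.05. Only Dcx is filled in Bet+HMD against HMD, Dcx, Neurod1 and Igfbpl1 are filled in Bet+HMD against Con, and all intervals of HMD against Con include 0.

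Ratios between genes of the same library do not depend on the size by which that library was divided, although quantile normalization, which is not such a factor, would change them. In the ratios of Dcx and of Mki67 to other genes the Bet+HMD samples stood apart. These ratios set a gene with higher values in Bet+HMD over one without, so they restate the levels above and are no separate support. Dcx was 0.161 to 0.231 of the Neurod1 level in Con, 0.184 to 0.220 in HMD and 0.643 to 0.666 in Bet+HMD. The Con and HMD ratios overlapped and every Bet+HMD ratio lay above them. The ratio of Dcx to Sox11 was 0.468 to 0.956 in Con, 0.522 to 0.680 in HMD and 1.63 to 1.73 in Bet+HMD. The order of the mean levels was Neurod1, Sox11, Sox4 and Dcx in Con and in HMD, where the ranges of the last 3 overlapped, and Neurod1, Dcx, Sox11 and Sox4 in Bet+HMD, where none of these ranges overlapped. The other 5 genes stood lower, at means of 0.108 to 1.05 FPKM in the 3 groups. The ratio of Mki67 to Top2a was 1.40 to 2.26 in Con, 1.06 to 1.46 in HMD and 3.42 to 5.79 in Bet+HMD. By contrast the ratio of Sox11 to Sox4 overlapped in all 3 groups, at 0.910 to 1.68 in Con, 0.962 to 1.63 in HMD and 1.32 to 1.70 in Bet+HMD. The ratios with Dcx or Mki67 as numerator thus lay higher in Bet+HMD, and that of the related factors Sox11 and Sox4 did not stand apart.

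**Figure D3:**
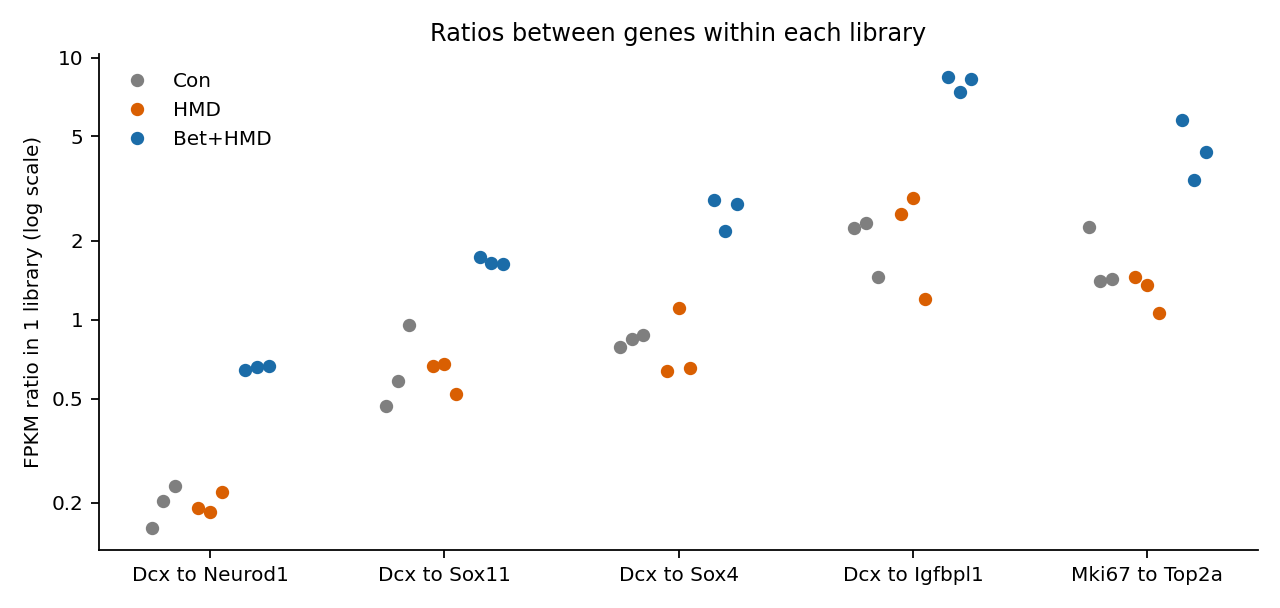
FPKM ratio of 2 genes within each library (log scale), 3 libraries per group. In all 5 ratios drawn the 3 Bet+HMD libraries lie above the 6 others, for example 7.41 to 8.45 against 1.20 to 2.92 for Dcx to Igfbpl1. The ratio of Sox11 to Sox4, which overlapped between the groups, is not drawn.

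The spread of most of the 9 genes was smaller in the Bet+HMD group, as it was for most of all genes. The coefficient of variation of the 9 had a median of 7.52% in Bet+HMD, 22.0% in Con and 24.9% in HMD, and was below the value from counting noise alone for 7 of the 9 in Bet+HMD and for 0 in HMD and in Con. Among the 21640 genes with a mean of at least 0.1 FPKM over the 9 libraries, that held for 14.1% in Con, 14.4% in HMD and 30.2% in Bet+HMD. The coefficient was lower in Bet+HMD than in HMD for 7 of the 9 and for 70.8% of all genes. It was lower in Bet+HMD than in Con for 8 of the 9 and for 73.4% of all genes. Its median over the 21640 genes was 21.2% in Con, 19.0% in HMD and 11.1% in Bet+HMD. How the Bet+HMD samples were obtained beyond their treatment is not stated.

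Gene length moved with the comparison. With all genes tested split in 5 equal parts by length, the median log2 fold change of Bet+HMD against HMD was 0.99 in the shortest part, at most 995 bases long, and lay between -0.01 and 0.10 in the other parts. Dcx (12647 bases), Mki67 (10061 bases), Top2a (9013 bases) and Sox11 (8311 bases) all fell in the longest part. Within that part Dcx lay at percentile 94.2, Mki67 at 77.8, Sox11 at 21.0 and Top2a at 1.82. Eomes (4155 bases), Sox4 (4795 bases) and Draxin (5200 bases) fell in the part next to the longest, at percentiles 1.23, 11.3 and 28.9 of it. Neurod1 (2729 bases) and Igfbpl1 (3250 bases) fell in the middle part, at percentiles 18.5 and 11.3 of it. Split instead by the share of G and C in the longest transcript, Dcx and Top2a fell in the lowest of 5 parts. The median log2 fold change of that part was 0.20, and Dcx lay at percentile 78.3 of it and Top2a at 7.96. The fold changes of low genes such as Mki67 and Top2a are drawn toward 0 by the pseudocount. The part of length and of the share of G and C in the fold changes of these genes was not tested.

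**Figure D4:**
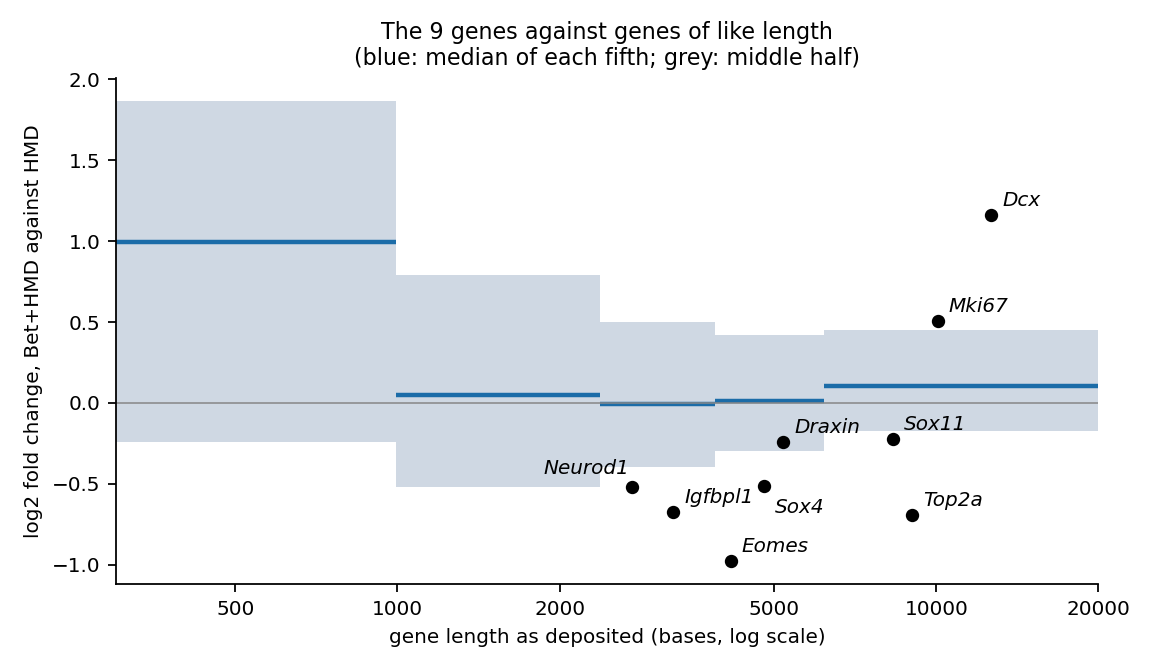
Log2 fold change of Bet+HMD against HMD by deposited gene length (bases, log scale); black points are the 9 genes, blue lines the medians and grey bands the ranges between the quartiles of 5 equal parts of all genes tested, with the ends of the shortest and longest parts left off. Dcx, at 1.16, and Mki67, at 0.51, lie above the band of the longest genes. Sox11, at -0.22, and Top2a, at -0.69, lie below it.

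Lists of genes for the cells before, beside and after these stages were counted in the same fits. They are read against the share of all genes called, 19.4% higher and 15.3% lower in Bet+HMD against HMD. Of 22 further genes of neuroblasts and immature neurons, all tested, 2 rose and 10 fell, with a median log2 fold change of -0.38 beside 0.11 for all genes. Gadd45g, a growth arrest gene of differentiating progenitors, fell from 14.4 ± 2.01 FPKM to 4.15 ± 0.208 FPKM (SD, n = 3; log2 fold change -1.76, limma adjusted p = 0.000133). Stmn2, which destabilizes microtubules in growing neurites, fell from 68.4 ± 1.05 to 36.3 ± 0.288 FPKM (SD, n = 3; log2 fold change -0.91, limma adjusted p = 0.000116). Dpysl5 and Elavl4, a growth cone protein and a neuronal RNA-binding protein, rose by log2 fold changes of 0.44 and 0.33. Dcx therefore rose while most of the called genes of this list fell. Several of those that fell stood far above Dcx in HMD, such as Tubb3 at 104 FPKM beside Dcx at 1.94 FPKM. Whether their RNA came from neuroblasts or from other neurons was not tested. Between 7 and 11 genes of this list were called lower under TPM, median ratio centring, quantile normalization and voom, and 3 or 4 were called higher. Against Con, where 17.3% of all genes were called higher and 12.2% lower, 1 of the 22 rose and 12 fell.

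Of 15 genes of neural stem cells 14 were tested, and 2 rose and 5 fell in Bet+HMD against HMD, with a median log2 fold change of -0.29. Nes, the intermediate filament nestin of stem cells, rose from 0.833 ± 0.151 to 1.92 ± 0.246 FPKM (SD, n = 3; log2 fold change 1.12, limma adjusted p = 0.0052), and Sox9 rose by 0.26. Vim, another filament that astrocytes also carry, fell from 15.8 ± 0.398 to 7.07 ± 0.316 FPKM (SD, n = 3; log2 fold change -1.15, limma adjusted p = 0.000124), and Hopx, a marker of quiescent stem cells, fell by 0.90. The filament genes Nes and Vim thus moved in opposite directions, and whether their RNA came from the same cells was not tested. Hopx, at 15.7 FPKM in HMD, stood far above Nes. Whether the RNA of Hopx and the rest of this list came from stem cells or from astrocytes was not tested either. In HMD against Con no gene of any list was called, and the smallest unadjusted p in these 2 lists belonged to Fabp7, a lipid carrier of stem cells and astrocytes, at 16.7 ± 6.15 FPKM in Con and 7.30 ± 1.28 FPKM in HMD (limma adjusted p = 0.697), and to Tubb2b (limma adjusted p = 0.856). Fabp7 was called lower in Bet+HMD against Con, with a log2 fold change of -1.66.

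The cell cycle list had 31 genes, of which 26 were tested in Bet+HMD against HMD, with 1 called higher, 1 lower and a median log2 fold change of -0.09. Prc1, which bundles the microtubules of the dividing spindle, rose from 0.197 ± 0.0457 to 1.05 ± 0.147 FPKM (SD, n = 3; log2 fold change 1.95, limma adjusted p = 0.00199). Pcna, the sliding clamp of DNA replication, fell by a log2 fold change of -0.57 (limma adjusted p = 0.00127). The median was 0.09 under TPM and -0.43 under quantile normalization, where 9 genes were called lower, so that no common direction held across scalings. Against Con, Prc1 and the cyclin gene Ccna2 were higher and Pcna was lower. The 2 called cell cycle genes lay on opposite sides of 0, as Mki67 and Top2a did.

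Of 8 genes that restrain the cell cycle, 3 fell against HMD and none rose, with a median log2 fold change of -0.54, and 1 rose under rescaling to TPM. Cdkn1a, which encodes the inhibitor p21, was at 9.00 ± 1.95 FPKM in HMD and 2.72 ± 0.209 FPKM in Bet+HMD (SD, n = 3; log2 fold change -1.67, limma adjusted p = 0.000525). In the earlier table it was at 3.00 ± 0.103 FPKM in Con and 9.02 ± 1.91 FPKM in HMD (SD, n = 3). That log2 fold change of 1.54 was not called (limma adjusted p = 0.223). Cdkn2d, the inhibitor p19, fell by 1.26 on the log2 scale, and Gadd45b was the other gene called. Of 9 genes listed for mature granule neurons 2 rose and 2 fell. Rbfox3, which encodes the neuronal nuclear antigen NeuN, rose by a log2 fold change of 0.62 and Calb1, the calcium buffer calbindin, fell by 0.62 on the log2 scale (limma adjusted p = 0.00205 and 0.00095). Pdzd2 rose by 0.45 and C1ql3, a secreted synaptic organizer, fell by 0.76 on the same scale. Whether the RNA of this list, that of Rbfox3 included, came from granule neurons or from other neurons was not tested.

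**Figure D5:**
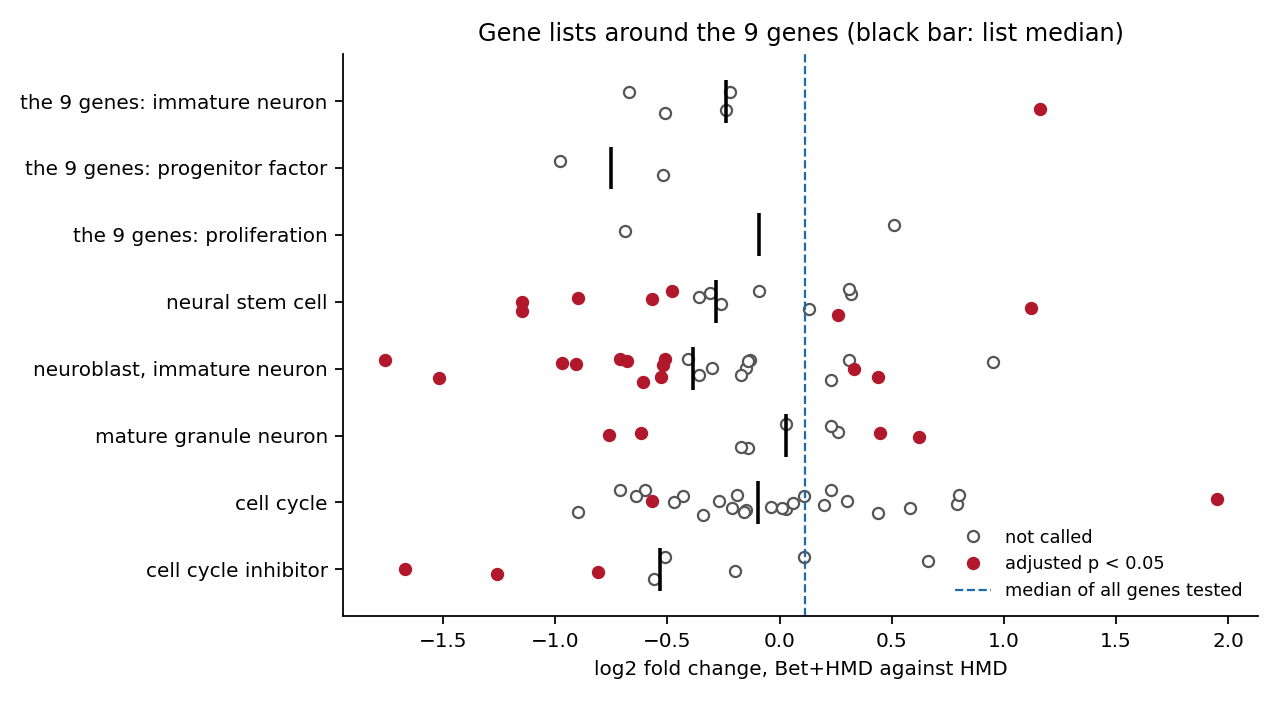
Log2 fold changes of Bet+HMD against HMD for the 9 genes by role and for 5 lists of related genes; filled points passed a limma adjusted p of 0.05, black bars are list medians and the dashed line is the median of all genes tested (0.11). Dcx, at 1.16, stands apart from the other genes of immature neurons, and 10 filled points of the neuroblast list lie below 0.

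Genes of neighbouring cells that could carry the same transcripts or enter the dissection were counted beside these. Of 9 genes of oligodendrocyte progenitors, cells that also divide, 3 rose, among them Gpr17 by a log2 fold change of 0.47 and Cspg4 by 0.75, and 2 fell, Pdgfra (-0.42) and Olig1 (-0.71), with a summed level of 105 to 109 FPKM in Bet+HMD and 101 to 133 FPKM in HMD. Of 7 genes of neuroblasts of the ventricular wall and of interneurons, Meis2 alone rose (log2 fold change 0.69, limma adjusted p = 0.0192), and the summed level was 15.5 to 16.9 FPKM in Con, 11.1 to 23.4 FPKM in HMD and 18.6 to 19.9 FPKM in Bet+HMD. These summed levels of markers of another source of Dcx-bearing cells overlapped between HMD and Bet+HMD but not between Con and Bet+HMD. The genes of the list did not move together against Con: 3 lay above 0 and 4 below. Their median log2 fold change there was -0.05, beside 0.10 for all genes. Meis2, one of the most abundant, was at 7.12 FPKM in Bet+HMD and 4.64 FPKM in Con. Of the 10 thalamic genes 3 fell, among them Zic1 (-1.13) and Ramp3 (-1.41, in log2). Of 10 striatal genes Rgs9 rose (0.76) and 3 fell, among them the receptor gene Drd2 (-1.29) and Tac1 (-0.77). Of 5 blood genes 2 fell, the haemoglobin genes Hba-a2, from 29.2 ± 5.71 to 1.54 ± 0.257 FPKM (SD, n = 3; log2 fold change -4.15), and Hbb-bs (-0.88). Hba-a2 has a near-identical copy, Hba-a1, between which reads can be split, so its value is uncertain. Of 5 microglial genes 2 fell, Csf1r (-0.54) and Tmem119 (-0.55). Of 7 choroid plexus genes 0 were called, and Aqp1 had the smallest p (log2 fold change -0.39, limma adjusted p = 0.281). Of the 6 genes of hippocampal neurons 2 fell, Spink8 (-1.30) and Fibcd1 (-0.84). The 4 others were not called: Prox1 (-0.17), Wfs1 (-0.01), Neurod6 (0.19) and Zbtb20 (0.52). No marker of these lists was at 0 in all libraries of a group. Their part in the values of the 9 genes was not tested. Without HMD replicate 1, the library richest in thalamic markers, the log2 fold change of Dcx against HMD was 1.01, and over all samples left out in turn it ran from 1.01 to 1.34.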

How the data were processed

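The authors deposited gene expression as FPKM in 2 tables, with each gene's length and GRCm38 position (another unit, used without change). The submitters' processing notes name HISAT2 2.1.0, featureCounts 1.5.0-p3 and mm10. The study's methods describe depletion of ribosomal RNA and give other versions. Columns marked COL were taken as Con, by inference. FPKM times length gave whole reads for 100% of values (tolerance 0.05 reads), so depth was known. The 6 shared samples had 0.312% to 5.49% fewer reads in the later table, so fits stayed within a table.

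limma 3.58.1 (R 4.3.3, empirical Bayes with an intensity trend) was applied to log2(FPKM + 0.1) for each pair of groups, over genes whose mean FPKM reached 0.1. This scale understates changes of low genes. p-values were two-sided and adjusted by Benjamini-Hochberg over all genes tested, with a threshold of 0.05. The script was tested on simulated data. SD is over 3 samples. Members and gene lists were chosen with earlier results of these data known. From each other list, up to 2 called genes per direction and comparison were chosen by smallest p, or the 1 with the smallest p where none was called. All those of Bet+HMD against HMD are printed and some of those of the other comparisons. Gadd45b was named against HMD after its value was seen, to complete a count. Alternatives were a pseudocount of 1, a filter at 1 FPKM or none, TPM, median ratio centring, quantile normalization, a replicate block, all groups in 1 fit, the later table, each sample left out in turn, and limma voom on recovered reads (mean of at least 10), added after the data were seen. Intervals cover 95%.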

Additional observations from a re-analysis of the deposited data

How the results depend on the processing

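Of all values recomputed, Dcx was called against HMD and against Con under every alternative. Leaving out each sample in turn gave 0 to 2 genes called in HMD against Con (all 3 groups in 1 fit gave 3), 5083 to 7907 in Bet+HMD against HMD (5083 without Bet+HMD replicate 2) and 3598 to 7051 in Bet+HMD against Con (3598 without Bet+HMD replicate 2 or 3, and 3742 without replicate 1). The number of the 9 genes called against HMD ran from 1 to 4 with a sample left out (4 without HMD replicate 2, adding Eomes, Neurod1 and Sox4; 2 without HMD replicate 1, adding Sox11, or without Bet+HMD replicate 2, adding Sox4). It was 2 with a filter at a mean FPKM of 1 and with all 3 groups in 1 fit, 5 with quantile normalization and 5 with voom on recovered reads (adding Mki67, Neurod1, Sox4 and Top2a). Against Con it ran from 1 to 4 with a sample left out (1, Dcx, without any Bet+HMD replicate), and was 1 with TPM and 7 with quantile normalization. Of the calls against Con 58.7% were higher, 79.4% with TPM and 48.6% with quantile normalization. The causes were not tested.

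Signs turned for small fold changes. Mki67 was -0.18 against HMD and -0.34 against Con with quantile normalization. In HMD against Con, Sox4 was 0.01 with TPM, all 3 groups in 1 fit or the later table and 0.00 with quantile normalization. With a sample left out the log2 fold changes there ran from -0.34 to 0.02 for Neurod1, -0.39 to 0.15 for Sox11, -0.10 to 0.06 for Sox4, -0.27 to 0.06 for Dcx, -0.45 to 0.21 for Igfbpl1, -0.34 to 0.11 for Draxin and -0.02 to 0.27 for Top2a, and from -0.41 to 0.02 for Draxin in Bet+HMD against HMD. For the 73 fold changes of genes of the other lists, 0 of 1105 values turned sign and 110 lost a call.

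The replicate numbers were not taken as pairing the samples, since not every pair of one number deviated together. Correlations of their deviations were -0.0262, 0.266 and 0.255 for HMD and Con, where 4 of 6 samples correlated best with their own number, -0.107 to 0.024 for Bet+HMD and HMD and -0.0906 to -0.00732 for Bet+HMD and Con. With the number as a replicate block, 0, 5976 and 4298 genes were called in the 3 comparisons, and 0, 1 and 2 of the 9 genes. The planned count test was not run because the values are FPKM. Low read numbers limit Top2a, Eomes and Draxin, with 12 to 61 reads per library in the later table.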
